A study of Mus musculus with 8 samples.

Results

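The 40 genes described here are cell cycle genes and cyclin-dependent kinase (CDK) inhibitor genes of the mouse, followed through 8 RNA sequencing libraries of macrophages. They were taken as a named list, matched by symbol or Entrez identifier, and all 40 were found among the 18125 genes listed in the 8 tables. By role they are 4 CDK inhibitors (Cdkn1a, Cdkn1b, Cdkn1c, Cdkn2c), 5 D cyclin and G1 kinase genes (Ccnd1, Ccnd2, Ccnd3, Cdk4, Cdk6), and 5 genes of the G1 to S transition (Ccne1, Ccne2, Cdk2, E2f1, Myc). A further 7 belong to replication licensing (Mcm2 to Mcm7, Gmnn), 5 to replication and nucleotide supply (Pcna, Rrm1, Rrm2, Tyms, Tk1) and 14 to mitosis and the S and G2 phases (Mki67, Top2a, Cdk1, Ccna2, Ccnb1, Ccnb2, Plk1, Aurka, Aurkb, Bub1, Birc5, Cdc20, Ube2c, Cenpa). The cells came from C57BL/6 mice, either wild type (WT) or Slc6a8-/y, a deletion of the X-linked creatine transporter gene, called knockout (KO) here. Peritoneal macrophages (PM) were drawn 3 to 4 days after an injection of 1 ml of 4% thioglycollate, an irritant that recruits macrophages to the peritoneum, and were left untreated or given IFN-gamma (12 hours at 10 ng/mL). Macrophages derived from bone marrow (BMDM) were grown for 5 days with 10% M-CSF, the macrophage growth factor, and were left untreated or given IL-4 (6 hours at 10 ng/mL). Each of the 8 groups is 1 library, and the labels do not say whether libraries of a genotype share an animal, so that p-values measure only the spread between these libraries.

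Cells enter the division cycle when D cyclins, induced by growth factors such as M-CSF, bind CDK4 and CDK6 and start the phosphorylation of the retinoblastoma protein, which releases E2F factors to switch on cyclin E, the MCM helicase and the enzymes of nucleotide supply. A later wave of genes, among them the B cyclins and the spindle and kinetochore genes, is transcribed in the G2 and M phases. The inhibitors p21 (Cdkn1a), p27 (Cdkn1b) and p57 (Cdkn1c) bind cyclin and kinase complexes, and p18 (Cdkn2c) binds CDK4 and CDK6; macrophages in M-CSF divide in culture, IFN-gamma is known to slow that growth, and IL-4 is known to slow it in culture but to drive division of tissue macrophages in the body.

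The summed expected counts were 10812678 to 11065427 in the PM libraries and 20553654 to 21221526 in the BMDM libraries, and a gene near 1 FPKM (fragments scaled to transcript length and to the library total) had a median of 30.0 to 31.0 counts in the former and 50.5 to 57.2 in the latter. Slc6a8 read 164 and 39.5 FPKM in the untreated and IFN-gamma WT libraries of PM against 0.73 and 0.18 in the KO libraries, and 97.3 and 87.9 FPKM in WT BMDM against 1.71 and 1.15 in KO BMDM, so all 8 libraries matched their genotype labels. All 8 macrophage markers (Adgre1, Csf1r, Cd68, Itgam, Mertk, Fcgr1, Lyz2, Cd14) were present in every library, the lowest value being 1.94 FPKM for Fcgr1. The T or NK cell markers summed to 0.67 to 3.98 FPKM in PM and 0.18 to 0.41 FPKM in BMDM, with Cd3g and Nkg7 at 0 throughout and Cd8a at 0.18 to 0.72 FPKM. Cell type goes together with how the cells were grown and with the set of libraries, and these cannot be told apart. In bulk RNA, fewer dividing cells and less of a transcript in each cell also cannot be told apart.

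**Figure D1:**
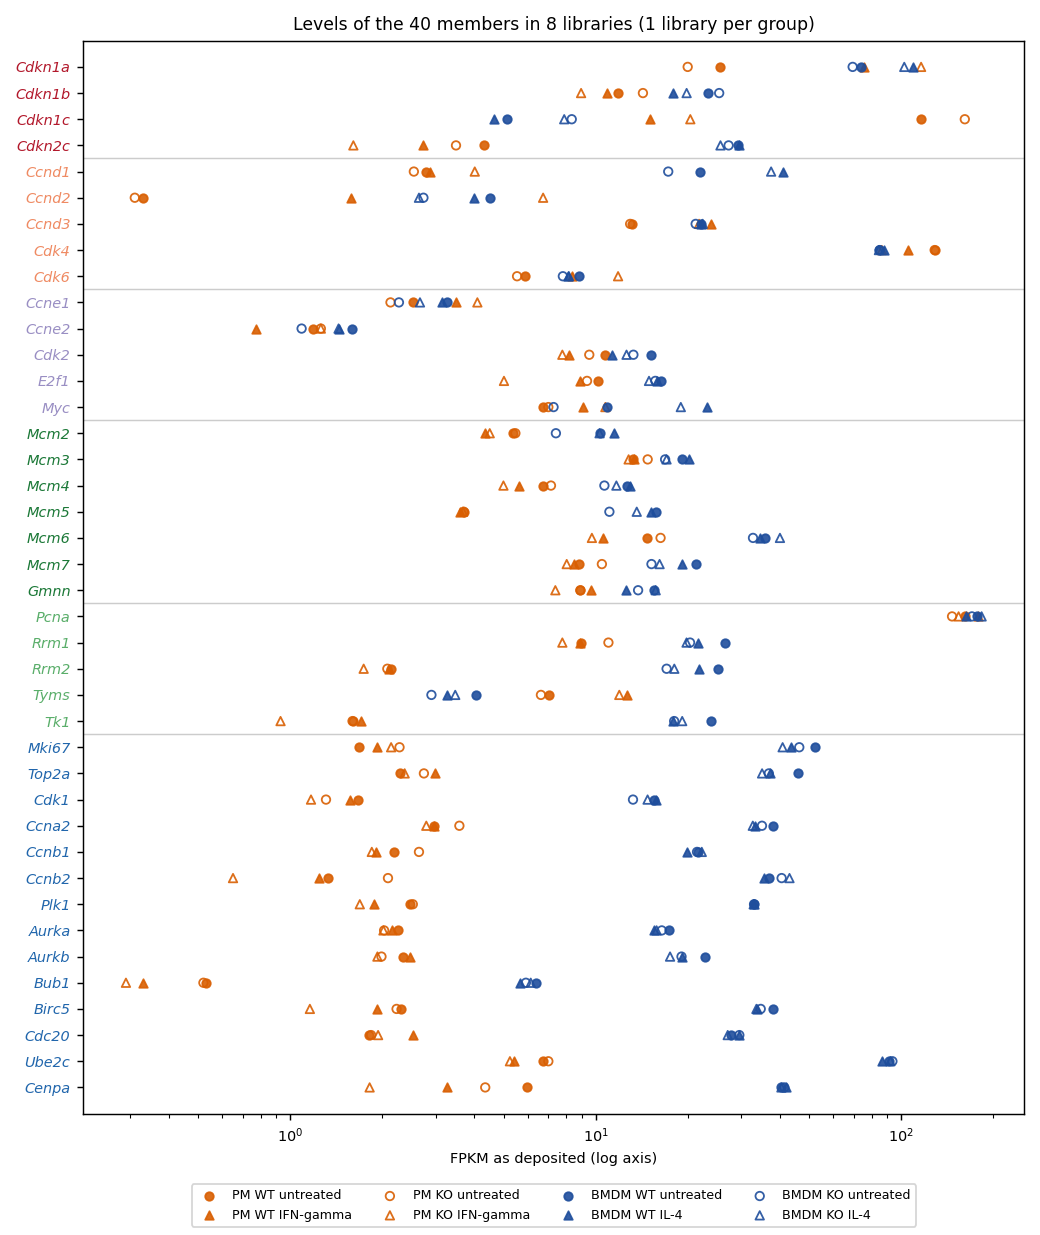
FPKM of each of the 40 genes (rows, coloured by role) in each of the 8 libraries on a log axis; orange marks PM and blue BMDM, circles untreated and triangles cytokine-treated cells, filled symbols WT and open symbols KO. The 14 mitosis genes form separate orange and blue clusters, while Pcna, Myc, Ccne1 and Ccne2 overlap.

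BMDM carried far more mitotic transcript than PM. The summed FPKM of the 14 mitosis genes was 36.5 and 37.1 in untreated WT and KO PM and 32.6 and 27.1 with IFN-gamma, but 487 and 467 in untreated WT and KO BMDM and 450 and 455 with IL-4. The ratio of BMDM to PM among untreated libraries was 13.4-fold in WT and 12.6-fold in KO. In the edgeR quasi-likelihood fit of the 4 untreated libraries, 2 BMDM against 2 PM with genotype as a term, 31 of 40 genes (77.5%) were called higher in BMDM and 3 (7.5%) lower at a Benjamini-Hochberg adjusted p under 0.05. Over all 12911 genes tested the shares were 27.5% higher and 27.5% lower (3546 and 3556 genes). The median log2 difference was 1.55 over the 40 genes and 0.01 over all genes. Without scaling beyond the library totals the median of all genes moved by 0.20 and the split of called genes went from 49.9% to 66.8% higher, while 33 of the 40 genes were then higher and 3 lower. As a plain ordering of FPKM, 29 of the 40 had all 4 BMDM libraries above all 4 PM libraries, 2 (Cdkn1c and Tyms) had them all below, and 9 overlapped. That ordering held for 37.2% and 14.8% of the 10994 genes that averaged 1 FPKM or more.

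All 14 mitosis genes were called higher in BMDM, by 2.76 to 4.44 on the log2 scale (median 3.43), and none of them overlapped between cell types. Mki67, which encodes the proliferation antigen Ki-67, read 1.68, 1.93, 2.28 and 2.14 FPKM in PM (here and below in the order WT untreated, WT cytokine, KO untreated, KO cytokine) and 52.0, 43.7, 46.4 and 40.9 FPKM in BMDM. It differed by 21.7-fold between untreated BMDM and PM (log2 4.44, SE 0.16, adjusted p = 1.83e-11). Top2a, the topoisomerase that untangles sister chromatids, stood at 2.28, 2.98, 2.74 and 2.37 FPKM in PM and 46.1, 37.2, 36.9 and 35.1 FPKM in BMDM, a 14.3-fold difference. Cyclin B2 (Ccnb2) was among the lowest of these genes in PM and among the higher in BMDM: 1.33, 1.24, 2.09 and 0.65 FPKM against 36.9, 35.6, 40.6 and 43.1 FPKM, or 19.7-fold. Its partner gene Ccnb1 ranged less widely, with 2.19, 1.91, 2.64 and 1.85 FPKM in PM and 21.6, 19.8, 21.5 and 22.3 FPKM in BMDM (7.75-fold).

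The kinases that drive entry into mitosis followed the same order. Cdk1, the mitotic CDK, measured 1.67, 1.57, 1.31 and 1.17 FPKM in PM and 15.5, 15.8, 13.2 and 14.8 FPKM in BMDM (8.39-fold). Ccna2, cyclin A2, which works with CDK2 and CDK1, had 2.96, 2.96, 3.58 and 2.79 FPKM against 38.0, 33.3, 35.0 and 32.7 FPKM (9.71-fold). Plk1, the polo-like kinase, was nearly flat within BMDM at 33.0, 33.0, 33.0 and 32.9 FPKM, and read 2.46, 1.88, 2.52 and 1.69 FPKM in PM (11.5-fold). The spindle pole kinase Aurka gave 2.25, 2.15, 2.03 and 2.02 FPKM in PM and 17.4, 15.5, 16.5 and 15.8 FPKM in BMDM (6.88-fold). Its chromosomal passenger counterpart Aurkb gave 2.34, 2.47, 1.99 and 1.93 FPKM and 22.9, 19.2, 19.1 and 17.5 FPKM (8.41-fold). Within each cell type the 4 libraries of these genes lay close together beside the gap between cell types.

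Genes of the spindle checkpoint and of protein degradation in mitosis were also split by cell type. Bub1, a checkpoint kinase, was the lowest of the 14 in every library, at 0.53, 0.33, 0.52 and 0.29 FPKM in PM and 6.37, 5.66, 5.91 and 6.13 FPKM in BMDM (10.1-fold). Cdc20, the activator of the anaphase-promoting complex, read 1.81, 2.53, 1.84 and 1.94 FPKM against 27.8, 29.4, 29.5 and 27.1 FPKM (13.6-fold). Ube2c, the ubiquitin-conjugating enzyme of that complex, was the highest of the 14 in all 8 libraries, with 6.71, 5.41, 7.0 and 5.24 FPKM in PM and 91.1, 86.5, 93.6 and 92.2 FPKM in BMDM (11.7-fold). The passenger protein gene Birc5 (survivin) had 2.31, 1.93, 2.23 and 1.16 FPKM in PM and 38.1, 33.8, 34.7 and 33.6 FPKM in BMDM (12.3-fold). Cenpa, the histone variant of centromeres, differed least of the 14, with 5.96, 3.27, 4.35 and 1.82 FPKM against 40.4, 42.0, 41.5 and 40.6 FPKM (6.77-fold). These levels rest on 11 to 255 counts per gene and library in PM and on 508 to 11257 in BMDM. Birc5 and Ube2c, with E2f1, Mcm5 and Tyms, had fractional expected counts in all 8 libraries, which marks reads shared with other sequences.

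**Figure D2:**
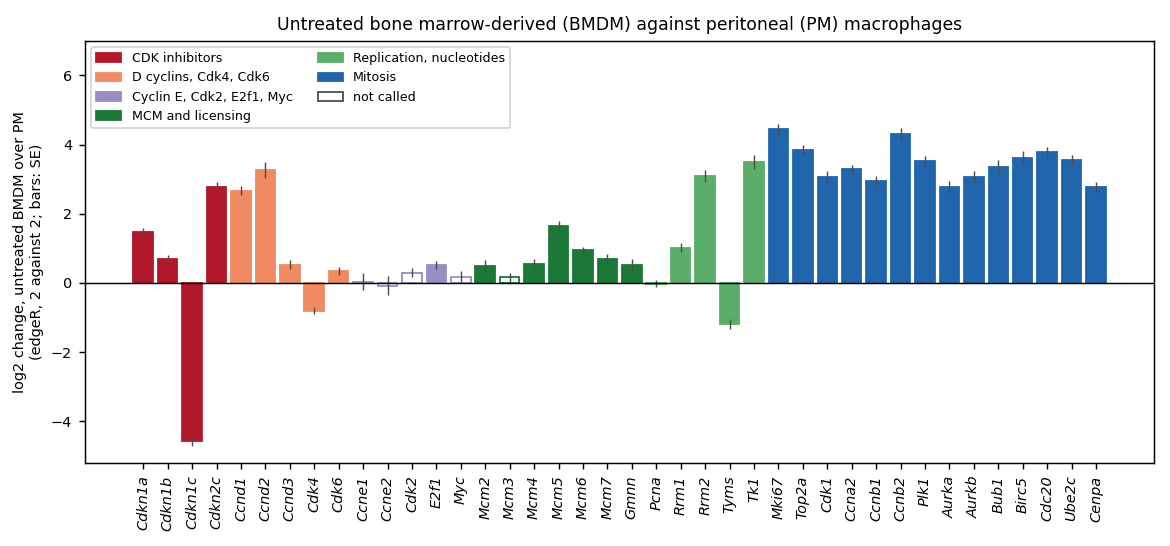
Log2 difference between untreated BMDM and untreated PM for each of the 40 genes, from the edgeR fit of 2 libraries against 2, coloured by role, with SE as error bars and open bars for genes not called. Every mitosis gene lies between 2.76 and 4.44, the licensing genes lie lower, and Cdkn1c is at -4.58.

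The promoters of these genes were read from RefSeq windows of GRCm38.p6 that run from 250 bases before to 50 bases after each transcript start. The 35 windows found belong to 31 of the 40 genes, all but Gmnn, Ccnd1, Ccnd2, Cdkn1c, Mcm4, Myc, Ccna2, Ccne2 and Aurkb. The CHR element (cell cycle genes homology region, TTTGAA or TTCGAA on either strand) is known for binding the DREAM and MuvB complexes that time G2 and M phase transcription. It was found in 10 of the 12 mitosis genes with a window (83.3%), in Mcm2 and Mcm7, and in none of the other genes, against 19.2% of all 32851 windows in the table. The E2F site core (TTTCGCG or TTTGGCG, either strand) was found in 4 of 5 licensing genes with a window (80.0%), namely Mcm3, Mcm5, Mcm6 and Mcm7, in Cdkn2c and in Cdk1, against 2.37% of all windows. The CCAAT box stood in 23 of 31 genes (74.2%), 11 of them among the 12 mitosis genes, against 37.4% of windows. The E-box CACGTG was present in Cdkn2c, Cdk4, Cdk6 and Tyms (7.15% of windows), with 4 copies in Cdk4. Of the cytokine elements, the GAS pattern (TTC and GAA with 3 bases between) was found in Mcm5 alone (8.30% of windows) and the pattern with 4 bases between, typical of STAT6, in Top2a alone (6.95% of windows), where it overlaps a CHR match. A match is a description of letters and not of binding.

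The windows below are the 250 bases before the start on the gene's own strand. They show CHR in Mki67, Cdc20 and Top2a, E2F in Mcm5 and Mcm6, and both in Cdk1. Not every match counted above lies before the start. The only CHR matches of Plk1, Aurka, Bub1 and Cenpa, and the only E2F matches of Mcm3 and Mcm7, lie after it. Capitals mark CHR and E2F matches on either strand; in Mcm5 and Mcm6, overlapping E2F matches on opposite strands run together. They lie at chr7:135716380-135716629 (Mki67, minus strand), chr4:118437344-118437593 (Cdc20, minus), chr11:99024190-99024439 (Top2a, minus), chr10:69352913-69353162 (Cdk1, minus), chr8:75109259-75109508 (Mcm5, plus) and chr1:128359706-128359955 (Mcm6, minus), each directly before the transcript start that the RefSeq window uses. For Mki67, Top2a and Mcm5 the listed gene reaches further upstream, into the bases shown.
Mki67: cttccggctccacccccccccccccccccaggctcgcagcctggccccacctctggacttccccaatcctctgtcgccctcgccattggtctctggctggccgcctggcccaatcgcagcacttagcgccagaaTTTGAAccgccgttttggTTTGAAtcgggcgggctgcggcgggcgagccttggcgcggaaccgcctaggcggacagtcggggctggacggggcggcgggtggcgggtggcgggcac
Cdc20: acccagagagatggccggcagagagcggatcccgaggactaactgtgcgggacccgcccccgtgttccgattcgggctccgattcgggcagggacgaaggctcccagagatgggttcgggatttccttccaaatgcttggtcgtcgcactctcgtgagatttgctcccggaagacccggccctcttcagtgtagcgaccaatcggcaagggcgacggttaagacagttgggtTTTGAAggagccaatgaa
Top2a: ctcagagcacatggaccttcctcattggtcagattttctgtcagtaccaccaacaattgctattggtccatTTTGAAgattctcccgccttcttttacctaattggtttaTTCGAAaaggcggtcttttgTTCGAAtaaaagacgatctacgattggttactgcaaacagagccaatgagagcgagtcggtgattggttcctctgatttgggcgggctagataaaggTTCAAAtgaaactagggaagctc
Cdk1: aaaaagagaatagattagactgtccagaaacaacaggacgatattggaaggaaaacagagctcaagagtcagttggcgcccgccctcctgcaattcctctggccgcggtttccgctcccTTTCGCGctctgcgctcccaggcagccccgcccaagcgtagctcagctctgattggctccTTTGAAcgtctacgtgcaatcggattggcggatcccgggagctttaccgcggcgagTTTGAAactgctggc
Mcm5: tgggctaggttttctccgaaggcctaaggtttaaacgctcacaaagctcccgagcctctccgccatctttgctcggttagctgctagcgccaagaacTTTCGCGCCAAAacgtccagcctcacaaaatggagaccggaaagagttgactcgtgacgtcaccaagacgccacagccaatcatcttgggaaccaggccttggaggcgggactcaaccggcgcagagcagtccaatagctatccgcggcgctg
Mcm6: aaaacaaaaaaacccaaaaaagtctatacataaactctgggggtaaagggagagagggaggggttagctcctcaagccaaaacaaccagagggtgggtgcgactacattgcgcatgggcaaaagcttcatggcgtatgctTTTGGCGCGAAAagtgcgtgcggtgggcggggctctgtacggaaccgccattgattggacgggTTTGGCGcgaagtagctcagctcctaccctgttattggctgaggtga

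Licensing genes, which load the replicative helicase before S phase, differed by 0.16 to 1.64 on the log2 scale between cell types, all below the smallest difference of a mitosis gene. Their summed FPKM was 61.5, 55.5, 66.8 and 51.1 in PM and 131, 126, 108 and 125 in BMDM, a ratio among untreated libraries of 2.13-fold in WT and 1.61-fold in KO. Of the 7, 6 were called higher in BMDM (median log2 difference 0.55) and Mcm3 was not (log2 0.16, adjusted p = 0.27). DESeq2 did not call Mcm2 (adjusted p = 0.142), Mcm4 (0.0519) or Gmnn (0.267). Mcm5, a subunit of the helicase ring, differed most: it read 3.72, 3.61, 3.70 and 3.68 FPKM in PM and 15.8, 15.2, 11.1 and 13.6 FPKM in BMDM (3.12-fold). Its PM values lay within 3.61 and 3.72 FPKM under both treatments and genotypes. Mcm6 followed with 1.92-fold, and Mcm2, Mcm4, Mcm7 and Gmnn, which encodes the licensing inhibitor geminin, with 1.41- to 1.63-fold.

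The replication and nucleotide genes did not move as a block. Tk1, the thymidine salvage kinase of S phase, stood at 1.61, 1.71, 1.60 and 0.93 FPKM in PM and 23.8, 18.0, 18.1 and 19.2 FPKM in BMDM (11.2-fold, adjusted p = 2.83e-09). Rrm2, the S phase subunit of ribonucleotide reductase, had 2.14, 2.10, 2.08 and 1.74 FPKM against 25.1, 21.8, 17.1 and 18.1 FPKM (8.55-fold). The constant subunit Rrm1 had 8.98, 8.91, 11.0 and 7.78 FPKM against 26.5, 21.6, 20.4 and 19.8 FPKM (2.03-fold). Pcna, the sliding clamp of replication and repair, was not called (log2 -0.02, SE 0.11, adjusted p = 0.872). Its level was high and similar everywhere, from 147 to 178 FPKM in PM and from 163 to 183 FPKM in BMDM. Tyms, thymidylate synthase, went the other way: 7.04, 12.7, 6.62 and 12.0 FPKM in PM and 4.05, 3.26, 2.90 and 3.47 FPKM in BMDM (2.28-fold lower, adjusted p = 1.01e-05).

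Among the D cyclins the mix differed between cell types. Ccnd1 (chr7:144929931-144939831) read 2.78, 2.86, 2.54 and 4.02 FPKM in PM and 21.9, 40.9, 17.3 and 37.5 FPKM in BMDM, and was 6.38-fold higher in untreated BMDM (log2 2.67, SE 0.13, adjusted p = 5.94e-10). Ccnd2 (chr6:127125162-127152188) gave 0.33, 1.58, 0.31 and 6.73 FPKM in PM and 4.52, 3.99, 2.73 and 2.64 FPKM in BMDM, 9.55-fold higher in untreated BMDM. Only its KO IFN-gamma library of PM reached above the BMDM range. Ccnd3 (chr17:47505051-47599689) gave 13.2, 23.8, 13.0 and 21.8 FPKM and 22.1, 22.2, 21.2 and 22.4 FPKM, 1.44-fold higher in untreated BMDM (DESeq2 adjusted p = 0.0532). It made up 80.9% and 82.0% of the summed D cyclin FPKM in untreated WT and KO PM, while Ccnd1 and Ccnd3 shared that sum nearly evenly in untreated BMDM (45.1% and 45.6% in WT, 41.9% and 51.5% in KO). Of the kinases, Cdk6 was 1.26-fold higher (DESeq2 adjusted p = 0.121) and Cdk4 1.74-fold lower in BMDM (adjusted p = 1.99e-05), Cdk4 being the more abundant, at 86.4 to 129 FPKM in PM and 84.6 to 88.0 FPKM in BMDM. Of the 5 genes of the G1 to S transition only E2f1, an activator of S phase genes, was called (1.42-fold higher; 0.0665 as the DESeq2 adjusted p); Ccne1, Ccne2, Cdk2 and Myc were not, with log2 differences of 0.04, -0.08, 0.30 and 0.18.

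All 4 CDK inhibitor genes differed between cell types, in both directions. Cdkn1c (chr7:143458339-143461059) read 116 and 162 FPKM in untreated WT and KO PM and 15.0 and 20.4 FPKM with IFN-gamma, but 5.13 and 8.35 FPKM in untreated and 4.65 and 7.89 FPKM in IL-4-treated BMDM. It was 23.8-fold lower in untreated BMDM (log2 -4.58, SE 0.13, adjusted p = 3.14e-12), and no BMDM library reached the lowest PM value. Cdkn2c (chr4:109660876-109666756) had the opposite pattern, with 4.32, 2.72, 3.49 and 1.61 FPKM in PM and 29.3, 29.4, 27.2 and 25.6 FPKM in BMDM (6.82-fold, adjusted p = 8.41e-10). Cdkn1a (chr17:29090979-29100722) stood at 25.6, 75.5, 20.01 and 116 FPKM in PM and 74.0, 110, 69.4 and 102 FPKM in BMDM, 2.75-fold higher in untreated BMDM, with its IFN-gamma values in PM inside or above the BMDM range. Cdkn1b (chr6:134920401-134925525) had 11.9, 10.9, 14.3 and 8.96 FPKM in PM and 23.4, 18.0, 25.4 and 19.9 FPKM in BMDM (1.63-fold higher). The summed FPKM of the 4 was 104 to 199 in PM and 130 to 162 in BMDM, and its ratio of BMDM to PM among untreated libraries was 0.834 in WT and 0.654 in KO. Cdkn1c was 73.5% and 81.0% of that sum in untreated WT and KO PM, and Cdkn1a was 53.2% to 67.8% of it in the BMDM libraries. Cdkn1c shares exon bases with Gm44732 on the opposite strand (625 bases), Cdkn1a with AC167363.2, Ccnd1 with LTO1, and Ccnd2 with 9330179D12Rik and Gm43126. Other members do so too, among them Cdk4 (Tspan31, 641 bases), Ube2c (Tnnc2, 592), Ccna2 (Exosc9, 510), Ccnd3 (Bysl, 361) and Mcm7 (Ap4m1, 321). Whether the counting used strand is not stated, so part of the reads of all these genes may belong to those partners.

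**Figure D3:**
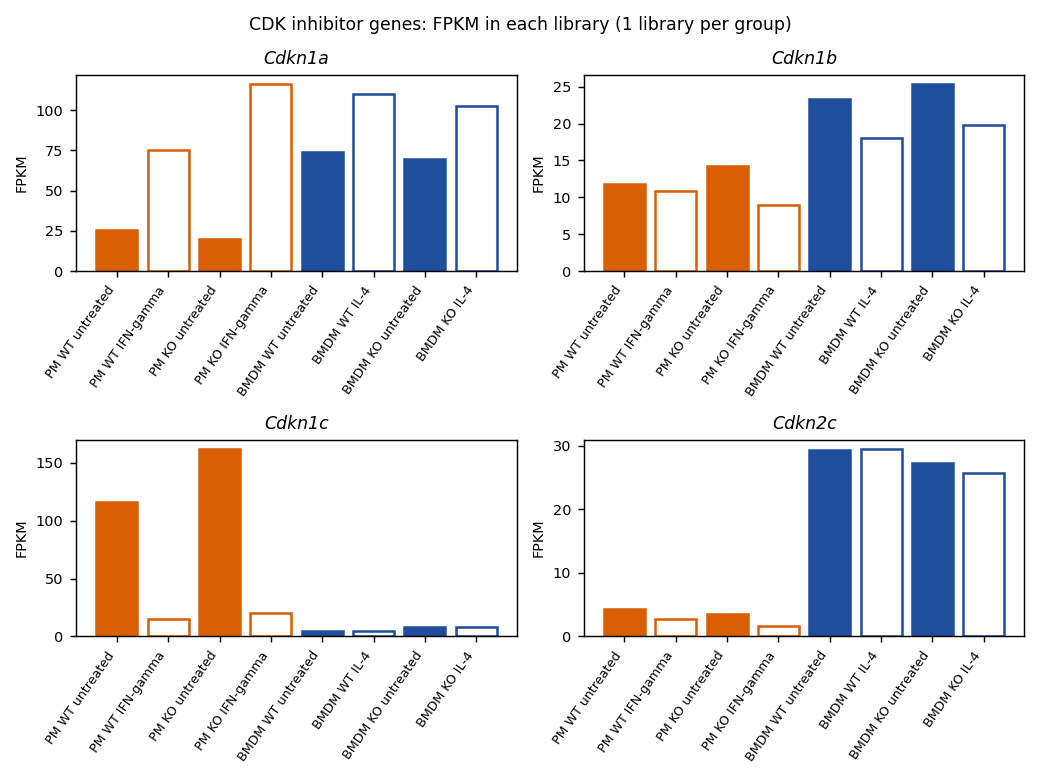
FPKM of the 4 CDK inhibitor genes in each library as bars from 0, orange for PM and blue for BMDM, filled when untreated and open with IFN-gamma or IL-4. Cdkn1c is tallest in untreated PM (116 and 162 FPKM), and Cdkn1a rises in both cell types with cytokine, to 75.5 and 116 FPKM in PM.

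Other genes of the pathway were compared in the same fit, where 27.5% of all genes were higher and 27.5% lower. Of 55 other mitosis genes 54 were called higher in BMDM (98.2%) and 1, Pttg1, lower (median log2 difference 2.92); the spindle gene Aspm (log2 4.50), the kinetochore gene Cenpf (4.15), the mitotic kinase gene Pbk (4.08) and the kinesin Kif2c (3.96) differed most. Of 39 other replication genes 18 were higher (46.2%) and 3 lower (7.69%, median 0.48), led by Mcm10 (3.09), Ticrr (2.95), Clspn (2.93) and Brca1 (2.48). Among 33 other CDK regulators and RB and E2F family genes, 12 were higher (36.4%) and 4 lower (12.1%), no larger a share called in all than over all genes, with a median of 0.06. Those higher were led by the CDK phosphatase Cdkn3 (3.22), E2f7 (2.93), E2f2 (2.84) and Cdc25b, which activates CDK1 (2.30). The lists were chosen with earlier results of these data known and serve as a description.

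Markers of macrophages and of other cells moved with cell type too, and their part in these differences was not tested. Of the 8 macrophage markers 6 were higher in BMDM (Cd14, Csf1r, Adgre1, Fcgr1, Itgam, Lyz2) and Cd68 was lower, the list summing to 6090 to 10201 FPKM in PM and 11610 to 14491 FPKM in BMDM. Csf1r, the M-CSF receptor gene, read 110 and 117 FPKM in untreated WT and KO PM and 1019 and 1109 FPKM in untreated BMDM. The 7 marrow progenitor markers summed to 1.83 to 2.78 FPKM in PM and 3.44 to 5.60 in BMDM; 1 of the 2 tested, Kit, was called higher in BMDM, the granule protein genes Mpo, Elane, Prtn3 and Ctsg were at or below 0.28 FPKM in every library, and Flt3 was at 0 in all PM. B cell markers summed to 3.48 to 5.75 FPKM in PM and 0.82 to 1.20 in BMDM, with 4 of 4 tested lower in BMDM and Pax5 at 0 in all BMDM. Erythroid markers summed to 46.6 to 88.4 FPKM in PM and 0.05 to 0.58 in BMDM, with 3 of 3 tested lower and Hbb-bs and Hbb-bt at 0 in BMDM. Mast cell, eosinophil and basophil markers summed to 7.04 to 11.6 FPKM in PM and 0.66 to 1.69 in BMDM, with 3 of 3 tested lower (Cpa3, Tpsb2, Siglecf), and of 2 neutrophil markers tested Ltf was lower. Fibroblast and mesothelial markers summed to 80.4 to 128 FPKM in PM and 171 to 374 in BMDM; the collagens Col1a1, Col1a2 and Col3a1 were higher in BMDM, Upk3b, Dcn and Krt19 lower, and Msln and Upk3b were at 0 in BMDM.

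With IFN-gamma, edgeR called 6 of the 9 inhibitor, D cyclin and G1 kinase genes and 1 of the 14 mitosis genes in PM. DESeq2 did not call Cdkn2c or the mitosis gene Cenpa, and the mitosis genes rest on 11 to 255 counts per gene and library. The fit of the 4 PM libraries, 2 treated against 2 untreated, called 7 of the 40 genes higher (17.5%) and 4 lower (10.0%), against 17.2% and 14.9% of all 12052 genes tested, so the share of members called was close to or under that of the transcriptome. Another scaling moved the split over all genes, from 53.6% higher with TMM to 43.9% with library totals alone and 40.6% with upper-quartile scaling, which shifted the median of all genes by -0.12. The members' own counts were then 6 higher and 5 lower in both.

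The 2 inhibitors with the highest FPKM in PM changed in opposite directions. Cdkn1c fell 7.33-fold (log2 -2.87, SE 0.10, adjusted p = 2.86e-05), WT going from 116 to 15.0 FPKM and KO from 162 to 20.4 FPKM. Cdkn1a rose 4.41-fold (log2 2.14, SE 0.25, adjusted p = 0.00165), WT going from 25.6 to 75.5 FPKM and KO from 20.01 to 116 FPKM. Neither gene's treated values overlapped its untreated ones. Cdkn1c went from 73.5% to 14.4% of the summed inhibitor FPKM in WT and from 81.0% to 13.9% in KO, while Cdkn1a went from 16.2% to 72.5% and from 10.0% to 79.0%. Cdkn2c fell 1.77-fold (log2 -0.82, SE 0.22, adjusted p = 0.0332) on 35 to 85 counts, a call that DESeq2 did not make (adjusted p = 0.411). Cdkn1b was not called, with a log2 change of -0.30 (SE 0.15, adjusted p = 0.185).

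Of the 3 D cyclins, Ccnd2 and Ccnd3 rose with IFN-gamma, as did the kinase gene Cdk6. Ccnd2 rose 12.4-fold in the fit (log2 3.63, SE 0.45, adjusted p = 0.00222), WT going from 0.33 to 1.58 FPKM and KO from 0.31 to 6.73 FPKM, from 20 and 21 counts in the untreated libraries. Ccnd3 rose 1.86-fold (log2 0.90, SE 0.11, adjusted p = 0.00195), with treated libraries at 23.8 and 21.8 FPKM above untreated ones at 13.2 and 13.0 FPKM. Cdk6 rose 1.87-fold, WT going from 5.88 to 8.38 FPKM and KO from 5.53 to 11.8 FPKM. Ccnd1 was not called (log2 0.46, adjusted p = 0.147), and neither was Cdk4 (log2 -0.33, adjusted p = 0.0552). In WT the summed D cyclin FPKM went from 16.3 to 28.2, and in KO from 15.8 to 32.6, of which Ccnd2 made up 5.59% and 20.7% after treatment.

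**Figure D4:**
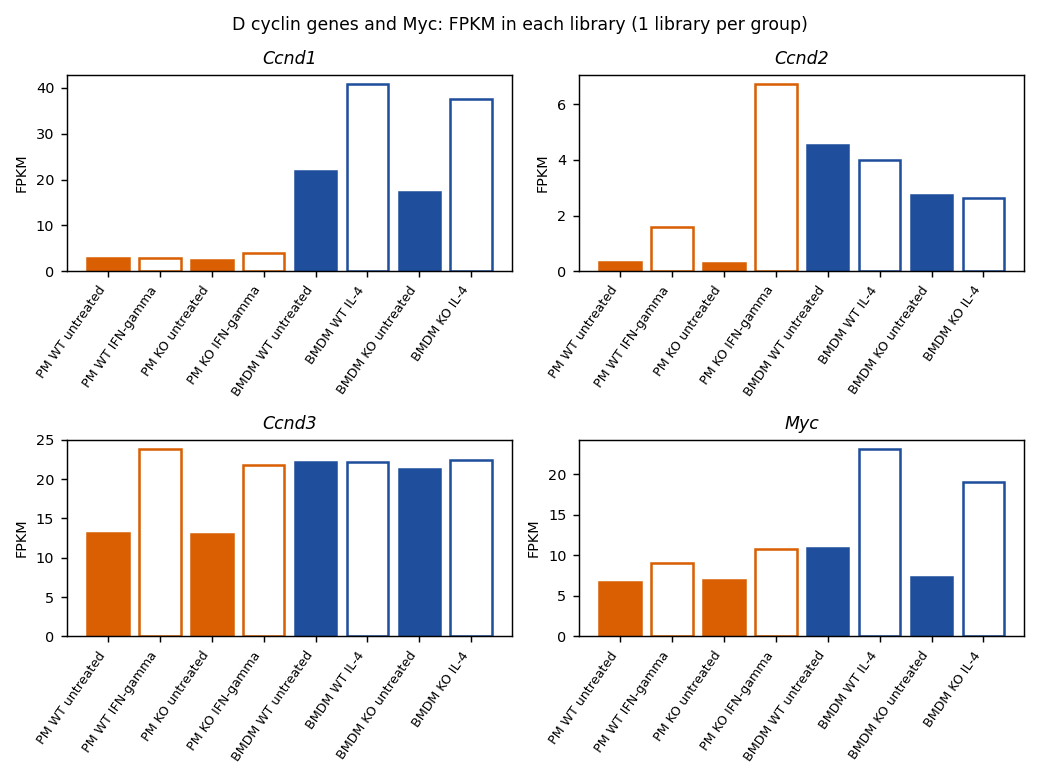
FPKM of Ccnd1, Ccnd2, Ccnd3 and Myc in each library as bars from 0, orange for PM and blue for BMDM, filled when untreated and open with cytokine. Ccnd1 and Myc are tallest in the IL-4 libraries of BMDM, and Ccnd2 in the KO IFN-gamma library of PM (6.73 FPKM).

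Further along the cycle few members changed with IFN-gamma. Tyms rose 1.93-fold (adjusted p = 0.00164), WT going from 7.04 to 12.7 FPKM and KO from 6.62 to 12.0 FPKM. Myc, the growth-promoting transcription factor, rose 1.54-fold (log2 0.62, SE 0.13, adjusted p = 0.0163), from 6.73 to 9.06 and from 7.0 to 10.8 FPKM, a call that DESeq2 did not make (adjusted p = 0.198). Ccne1, cyclin E1, rose 1.74-fold (adjusted p = 0.0417), a call lost in 5 of 8 alternatives. Among the 14 mitosis genes only Cenpa was called, at 2.04-fold lower (adjusted p = 0.0175; 0.235 with DESeq2), from 5.96 to 3.27 and from 4.35 to 1.82 FPKM. The median log2 change of the 14 was -0.17, beside -0.01 for all genes, on the 11 to 255 counts per gene and library given above. Mcm6 was the single licensing gene called (1.44-fold lower, adjusted p = 0.0164; 0.178 with DESeq2).

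Other genes of the pathway were called in both directions with IFN-gamma, most lists at shares near or under the 17.2% higher and 14.9% lower of all genes. Of 51 other mitosis genes tested, 1 rose (the kinetochore gene Spc24, log2 2.09) and 7 fell, led by the kinesin Kif23 (-1.82), Cdca3 (-1.36) and Ckap2 (-1.12), shares of 1.96% and 13.7% with a list median of -0.37. Of 39 other replication genes 5 rose, among them the polymerase subunit Pola2 (1.59), the clamp loader Rfc5 (1.01) and the flap nuclease Fen1 (0.78), and 2 fell, including the licensing factor Cdt1 (-0.92), shares of 12.8% and 5.13%. Of 31 CDK regulators and RB and E2F genes tested 6 rose, led by the pocket protein gene Rbl1 (p107, 1.97), and 5 fell, led by Cdc25b (-1.76), the ubiquitin ligase gene Fbxw7 (-1.64) and Tfdp2 (-0.98), shares of 19.4% and 16.1%. Cdkn1a is itself a p53 target. Of 19 genes tested from a list of other p53 targets and the p53 gene Trp53, 5 rose, led by Fas (3.29) and Pmaip1 (1.47). Trp53 was among the 5. Another 3 fell, led by Gadd45a (-3.66) and Sesn1 (-0.82), the shares being 26.3% and 15.8%. Of 23 MYC partners and MYC-linked genes tested 4 rose, led by Max, the dimer partner of MYC (1.5), and 3 fell, the MAX-binding repressor genes Mxi1 (-1.57), Mxd4 (-1.45) and Mnt (-0.77), shares of 17.4% and 13.0%. Of 10 antiproliferative factors Klf2 (0.86) and Btg1 (0.80) rose and 3 fell, led by Foxo3 (-1.60) and Tob1 (-1.0).

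Some marker lists moved with IFN-gamma as well, and their part was not tested. Dendritic cell markers summed to 0.70 and 0.95 FPKM in untreated WT and KO PM and 31.7 and 15.6 FPKM with IFN-gamma, nearly all of it Clec9a (30.7 and 14.1 FPKM), with 2 of 3 tested called higher and Zbtb46 at most 0.49 FPKM. Erythroid markers summed to 46.6 and 60.6 FPKM untreated and 72.1 and 88.4 FPKM treated, with 2 of 4 called higher. Fibroblast and mesothelial markers summed to 128 and 115 FPKM untreated and 104 and 80.4 FPKM treated, with 3 of 6 called lower. The T cell gene Cd3d was called higher (1 of 2 tested), its list summing to 0.67 and 1.29 FPKM untreated and 2.11 and 3.98 FPKM treated. Of the macrophage markers 2 of 8 were called higher (Fcgr1, Mertk) and 4 lower (Cd14, Cd68, Itgam, Lyz2).

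With IL-4, BMDM raised Myc and Ccnd1 while their mitotic transcripts stayed within a narrow range. The fit of the 4 BMDM libraries called 4 of the 40 genes higher (10.0%) and 2 lower (5.0%), against 12.0% and 9.23% of all 12879 genes tested, no larger a share than the background. The split over all genes went from 56.5% higher with TMM to 44.1% with library totals alone, where the members gave 4 higher and 4 lower, and to 46.7% with upper-quartile scaling, where they gave 4 and 2. Myc (chr15:61985341-61990361) rose 2.40-fold (log2 1.26, SE 0.08, adjusted p = 3.45e-06), WT going from 10.9 to 23.1 FPKM and KO from 7.28 to 19.0 FPKM. Ccnd1 rose 2.07-fold (log2 1.05, SE 0.06, adjusted p = 1.71e-06), WT going from 21.9 to 40.9 FPKM and KO from 17.3 to 37.5 FPKM. For both genes the IL-4 libraries lay above both untreated libraries. Ccnd1 went from 45.1% to 61.0% of the summed D cyclin FPKM in WT and from 41.9% to 60.0% in KO.

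The inhibitor most changed by IL-4 was Cdkn1a. It rose 1.52-fold (log2 0.60, SE 0.05, adjusted p = 1.62e-05), WT going from 74.0 to 110 FPKM and KO from 69.4 to 102 FPKM; with the spread taken from all 8 libraries the adjusted p was 0.141. Cdkn1b fell 1.25-fold (log2 -0.33, SE 0.06, adjusted p = 0.00266), from 23.4 to 18.0 and from 25.4 to 19.9 FPKM, but DESeq2 gave an adjusted p of 0.0927 and the 8-library spread 0.0954. Neither Cdkn1c (log2 -0.07, SE 0.10) nor Cdkn2c (log2 0.01, SE 0.06) was called. Small changes were called for the helicase gene Mcm2 (1.27-fold higher, adjusted p = 0.0165) and for Mki67 (1.13-fold lower, log2 -0.18, SE 0.04, adjusted p = 0.0199), both lost with DESeq2 (adjusted p = 0.24 and 0.0642). The other 13 mitosis genes were not called, with a median over all 14 of -0.01 and a range of -0.18 to 0.13.

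Among other genes of the pathway, more MYC-linked growth genes rose than fell with IL-4, where 12.0% of all genes were higher and 9.23% lower. Of 22 MYC partners and MYC-linked genes tested 11 rose, led by the ribosome biogenesis genes Nop58 (log2 0.59), Ddx21 (0.51) and Rrs1 (0.50), and 2 fell (9.09%), led by the MAX-binding repressor gene Mxi1 (-0.47), with a list median of 0.20 against 0.00 for all genes. The shares of the mitosis, replication and CDK regulator lists were no larger than those of all genes. Of 55 other mitosis genes 2 fell (3.64%), Cenpf (-0.34) and Aspm (-0.29), and of 39 other replication genes 1 rose (2.56%), the uracil glycosylase gene Ung (0.98). Of 33 CDK regulators 3 rose (Cdc25a, E2f3 and E2f4, by 0.22 to 0.36; 9.09%) and Rb1 fell (-0.20; 3.03%). Of 19 genes tested from the list of other p53 targets and Trp53, 7 rose (36.8%), led by Plk3 (1.70), Plk2 (0.50) and Aen (0.44). Trp53 was among the 7. Another 4 fell (21.1%), led by Pmaip1 (-0.90). Of 10 antiproliferative factors 2 rose, among them Klf4 (1.48), and 2 fell, Maf (-0.81) and Btg1 (-0.30).

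Marker lists moved with IL-4 as well, and their part in these changes was not tested. Of the 8 macrophage markers 2 were called higher (Csf1r, Adgre1) and 4 lower (Cd14, Fcgr1, Lyz2, Mertk), the list summing to 14353 and 14491 FPKM in untreated WT and KO BMDM and 11610 and 11655 FPKM with IL-4. The progenitor markers summed to 3.44 and 3.65 FPKM untreated and 4.65 and 5.60 FPKM with IL-4, with Cd34 and Flt3 (2 of 3 tested) called higher. Mast cell, eosinophil and basophil markers summed to 0.87 and 0.66 FPKM untreated and 1.69 and 1.4 FPKM with IL-4, with Siglecf (1 of 1 tested) higher. Fibroblast and mesothelial markers summed to 374 and 199 FPKM untreated and 352 and 171 FPKM with IL-4, with Col3a1 (1 of 4 tested) lower.

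The cytokine responses were set against each other in a single fit of all 8 libraries; cytokine, hours and cell type go together here and cannot be told apart. The signed IFN-gamma change exceeded the signed IL-4 change for 5 of the 40 genes (12.5%) and fell below it for 5 (12.5%), beside 13.8% and 12.3% of all 13340 genes tested, again a share close to the background. Ccnd2 (difference 3.80, SE 0.46, adjusted p = 0.00115), Cdkn1a (1.56, SE 0.29, adjusted p = 0.00816), Tyms (0.96), Cdk6 (0.92) and Ccnd3 (0.84) had the larger change with IFN-gamma. Cdkn1c (-2.78, SE 0.11, adjusted p = 1.29e-05), Cenpa (-1.04), Cdkn2c (-0.80), Mcm6 (-0.67) and Myc (-0.62) had the larger change downward with IFN-gamma or, for Myc, upward with IL-4. DESeq2 did not call the Myc difference (adjusted p = 0.124), and limma at a pseudocount of 1 did not call those of Ccnd2 (0.0572) and Cdk6 (0.0522). At a pseudocount of 0.1 limma did not call the Cdk6 difference either, and its highest adjusted p over the alternatives was 0.0554. Cdkn1a rose with both cytokines and by more in PM with IFN-gamma.

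**Figure D5:**
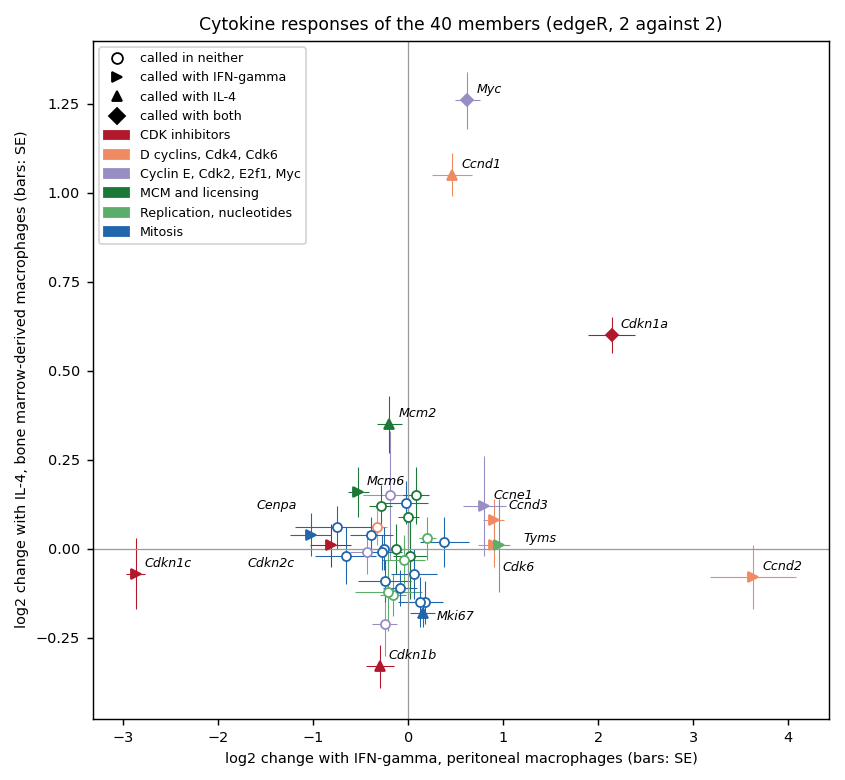
Log2 change of each of the 40 genes with IFN-gamma in PM (x axis) against its log2 change with IL-4 in BMDM (y axis), each from an edgeR fit of 2 libraries against 2 with SE bars, coloured by role. Cdkn1a and Myc are called in both by edgeR (DESeq2 calls Myc with IL-4 alone), Cdkn1c and Ccnd2 lie at the ends of the x axis (-2.87 and 3.63), and Ccnd1 is called with IL-4 only.

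Loss of Slc6a8 gave no call among the 40 genes in PM. The genotype term of the PM fit called 0 of 40 by edgeR, where 4 had an unadjusted p under 0.05, and DESeq2 and limma also called 0; over all 12052 genes the shares were 0.0249% higher and 0.0083% lower. The median log2 difference of the 40 between KO and WT was -0.01 beside 0.01 for all genes.

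In BMDM the genotype term called 1 of the 40 genes higher in KO (2.5%) and 5 lower (12.5%), beside 1.51% and 3.68% of all 12879 genes. By edgeR 19 of the 40 had an unadjusted p under 0.05, beside 2283 of all 12879 genes. The log2 difference between KO and WT was below 0 for 31 of the 40 and above 0 for 9. Its median was -0.09 over the 40 and 0.0 over all genes. Cdkn1c was higher in KO by 1.66-fold (log2 0.73, SE 0.10, adjusted p = 0.00304), with 8.35 and 7.89 FPKM in KO and 5.13 and 4.65 FPKM in WT; the DESeq2 adjusted p was 0.117. Ccnd2 was lower by 1.58-fold (log2 -0.66, SE 0.09, adjusted p = 0.00251), with 2.73 and 2.64 FPKM in KO and 4.52 and 3.99 FPKM in WT. For both genes the KO and WT values did not overlap. Rrm2 (log2 -0.41), Myc (-0.41), Mcm7 (-0.36) and Mcm5 (-0.33) were also lower, each with an adjusted p between 0.0116 and 0.0473. DESeq2 called 0 of the 40 in either direction, its adjusted p for Ccnd2 being 0.0563. No mitosis gene was called, and their median was -0.02.

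Fibroblast and mesothelial markers moved with genotype in the same libraries: their summed FPKM was 374 and 352 in WT BMDM and 199 and 171 in KO BMDM, and 3 of 4 tested (Col1a1, Col1a2, Col3a1) were called lower in KO. Msln and Upk3b were at 0 in all 4. Kit, a progenitor marker, was called higher in KO (1 of 3 tested), the list summing to 3.44 and 4.65 FPKM in WT and 3.65 and 5.60 FPKM in KO. The part of either in the Cdkn1c and Ccnd2 differences was not tested. The difference between the genotype effects of BMDM and PM, tested in the 8-library fit, called 0 of the 40 by edgeR (6 had an unadjusted p under 0.05), and DESeq2 and limma called 0 as well, beside 0.0375% higher and 0.09% lower of all 13340 genes. For Ccnd2 that difference was -2.41 (SE 0.41, adjusted p = 0.0848) and for Cdkn1c 0.29 (SE 0.11, adjusted p = 0.274).

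Whether KO and WT cells answered a cytokine differently has no test with 1 library per group, and the responses are given side by side as log2 ratios of FPKM plus 1. In PM, 4 of the 40 genes had responses at least 1.5-fold apart, where 8.56% of the genes averaging 1 FPKM or more did. With IFN-gamma Ccnd2 changed by 0.96 in WT and 2.56 in KO, and Cdkn1a by 1.52 in WT and 2.48 in KO. E2f1 changed by -0.18 and -0.79, and Ccnb2 by -0.06 and -0.91, the latter on 11 to 35 counts. The Cdkn1c responses were nearly equal, at -2.87 in WT and -2.92 in KO. In BMDM none of the 40 differed by 1.5-fold, beside 2.06% of genes: Myc changed by 1.01 in WT and 1.27 in KO, Ccnd1 by 0.87 and 1.08, and Cdkn1a by 0.56 and 0.55.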

How the data were processed

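The 8 libraries were sequenced as RNA, and the authors' deposited tables give an expected count and an FPKM value per gene; Bowtie2 2.2.5, RSEM (version not given in the sources used here) and the mm10 build are named, per the submitters' processing notes. The deposited expected counts were whole within 0.005 for 70.1% to 77.8% of genes and were rounded here; a gene not listed in a table was set to 0. The deposited FPKM values are scaled to each library's own total and not between libraries, and serve as levels. Symbols and positions came from the RefSeq table of GRCm38.p6, the build that mm10 names, for 18076 genes; 42 kept the deposited symbol and 7 had none.

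Tests used edgeR 4.0.16 (quasi-likelihood, TMM, filterByExpr) in R 4.3.3 over all genes, with Benjamini-Hochberg adjustment and calls at 0.05. Additive fits compared 2 libraries with 2 others (1 residual degree of freedom), and the 8-library fit has 2. The common biological coefficient of variation was 10.4% (PM), 4.6% (BMDM), 9.1% (untreated libraries) and 7.4% (all 8). As no group holds a replicate, these values come from what the additive terms leave over and do not measure replicate variation. Each SE was derived from the size of the log2 change and the root of its F statistic, as their quotient. DESeq2 1.42.0, limma 3.58.1, other scalings, filters and pseudocounts were alternatives, and the code was tested on simulated data. Side-by-side responses use log2 ratios of FPKM plus 1.

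The members and all gene lists were chosen with earlier results of these data known. Values in every library are given for the inhibitors, D cyclins, Myc, Slc6a8 and each member called in a stimulus, genotype or cell type fit at an absolute log2 change of at least 1; of each pathway list at most 4 called genes are named. Pttg1 and members outside that rule were named after their values were seen. Counting error is a lower limit, since PCR copies are not independent molecules. Protein sequences were not used here.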

Additional observations from a re-analysis of the deposited data

How the results depend on the processing

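No paired analysis was possible because every group holds 1 replicate, so that no replicate number links samples; genotype is already a term of the cytokine and cell type fits. No library was left out in turn, since each group is 1 library. The cell type counts stayed between 25 and 33 higher, with 3 lower, under all 8 alternatives. No call of a member changed sign under any alternative. Of the single-gene calls re-run under alternatives, 477 stayed past the threshold and 49 did not, 21 of the latter with DESeq2 and 10 with the spread taken from all 8 libraries. With DESeq2 the members called lower with IFN-gamma went from 4 to 1, those lower with IL-4 from 2 to 0, and the genotype calls in BMDM from 1 higher and 5 lower to 0 and 0. With the spread from all 8 libraries the IL-4 calls were 2 higher and 0 lower, and the genotype calls lower in BMDM were 0. Without scaling beyond library totals, 4 members were lower with IL-4, 2 were higher and 10 lower in KO BMDM, and 8 had a signed change with IFN-gamma below that with IL-4; upper-quartile scaling also gave 8. With no filter on low counts 2 were higher and 10 lower in KO BMDM, and 1 was lower in the difference of genotype effects between cell types. With limma 1 member was lower in KO BMDM at either pseudocount, and 3 had a signed change with IFN-gamma above that with IL-4 at a pseudocount of 1. The responses of KO and WT PM were at least 1.5-fold apart for 7 members at a pseudocount of 0.1, against 4 at 1. The cause of these shifts was not tested. The split of all called genes in the IFN-gamma against IL-4 comparison went from 52.9% higher to 44.9% without scaling and 42.0% with upper-quartile scaling. For genotype in PM it went from 3 higher and 1 lower to 1 and 1 under both scalings and to 19 and 21 with DESeq2, and for the genotype difference between cell types from 5 higher and 12 lower to 4 and 6 without scaling and to 68 and 39 with DESeq2. Called genes over the transcriptome with DESeq2 were 1272 higher and 877 lower with IFN-gamma, 672 and 416 with IL-4, 44 and 126 for genotype in BMDM (364 and 676 with edgeR without scaling), and 2193 and 2211 between cell types.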

Other observations

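Growth-regulating genes outside the cycle itself were compared between untreated BMDM and PM, where 27.5% of all genes were higher and 27.5% lower. Of 23 MYC partners and MYC-linked genes tested, 4 were higher in BMDM (17.4%) and 12 lower (52.2%; median log2 difference -0.30 beside 0.01 for all genes). The MAX-binding repressor gene Mxd3 was lower by 3.31 on the log2 scale (edgeR adjusted p = 2.67e-10), at 31.1 to 34.9 FPKM in PM and 3.32 to 3.99 FPKM in BMDM, and its relative Mxd4 was higher by 1.41. Mycl was lower by 2.87 and Max by 0.88. Of 10 antiproliferative factors 6 were higher (60.0%), among them Klf2 (2.02) and Maf (1.72), and 2 lower, led by Btg3 (-3.28), which read 13.5 to 20.6 FPKM in PM and 2.11 to 3.47 FPKM in BMDM. Of 19 genes tested from the list of other p53 targets and Trp53, 3 were higher (15.8%), led by Sesn1 (1.68). Another 7 were lower (36.8%), led by Gadd45a (-1.97), Plk2 (-1.63) and Eda2r (-1.50). The share called in all was no larger than over all genes.

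Maf, which is known to restrain macrophage self-renewal, read 75.2 and 67.4 FPKM in untreated WT and KO BMDM and 44.5 and 35.2 FPKM with IL-4, the IL-4 libraries being lower in both genotypes.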
